A study of Homo sapiens with 80 samples.

Results

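Antisense long noncoding RNAs (lncRNAs) are transcripts of limited coding potential read from the strand opposite to another gene, after which most of them are named (X-AS1 lies antisense to X). Some act on the neighbouring gene, through its promoter, its chromatin or by pairing with its transcript, others act elsewhere in the cell, and for many no function is known. They are often low in abundance and are detected together with unfinished transcripts when ribosomal RNA is depleted instead of poly(A) RNA selected. Here 268 named antisense lncRNAs of the 60663 genes counted were followed in Jurkat T cells, an established line of human T lymphocytes (clone E6-1). They were chosen by a symbol ending in -AS with at most 1 digit and selected on a mean raw count of 50 or more over all 80 libraries. OIP5-AS1 and EPB41L4A-AS1 were not included, and 1845 genes carried such a symbol at any count. The mean includes the 12 spun libraries of the second experiment described below, without which 10 of the 268, CELF2-AS1 and TEDC2-AS1 among them, would have lain below the minimum. It also includes the heat libraries and the hypergravity libraries of the first experiment, and the minimum was not recomputed without those. How far calls up at heat and in hypergravity rest on this selection was not tested. All 268 passed the filter on low counts in every comparison.

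The libraries were made from total RNA with ribosomal RNA removed by a directional kit, so that reads of a gene and of its antisense partner were counted on their own strands. In the first experiment, each group had 6 libraries. Ctrl cells stayed at 1 g for 15 min and Ctrl60 cells for 60 min, and the others were exposed to 9 g in a pipette centrifuge. The exposures were 20 s (hypg020s), 75 s (hypg075s) and 3, 5, 7, 9, 15 and 60 min (hypg3 to hypg60). In the second experiment, 4 libraries per group came from uncentrifuged cells (A-Ctrl), from cells spun at 300 g for 5 min and lysed after a wait of 1, 4 or 15 min (wait1min, wait4min, wait15min), and from cells held in a water bath of 42 °C for 5 min (heat). By the described procedure the heat cells were rotated throughout and warmed before the 5 min were counted, while A-Ctrl cells were fixed directly. Rotation and handling time therefore cannot be told apart from temperature. The waits are those of the sample titles and of the described procedure, although in the count table the columns of wait1min are named "instant" and those of wait4min "1min". The questions were how fast transcripts respond to mild hypergravity, and how a routine spin and a heat shock compare with it. The labels do not say that the libraries of a group came from separate cultures, so p-values measure the spread between these libraries only. Total counts were 22634465 to 41893490 per library. Library 75 of hypg15 was left out: it held 17205655 counts and none for 80 of the 268 transcripts, which were all detected in each of the other 79 libraries. Replicate 44 of hypg60 stood apart from its group mates, with a chi-square per gene of 38.9 to 142.6 against 9.13 to 46.8 among the other 5, and the hypg60 counts are therefore given with and without it. Replicate 29 of hypg5 had 18.3 to 70.9 against 2.65 to 25.6 among the rest of its group. For replicate 9 of Ctrl60 the values were 9.65 to 33.3 against 3.33 to 12.9. Fits without these 2 libraries were not run. Library numbers run from 69 to 80 in hypg3 and hypg15 and from 1 to 48 in the rest of that experiment, and an effect of this separation cannot be told apart from these exposures.

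The cells carried their T cell label: the 11 T cell markers summed to 4855 CPM in A-Ctrl, led by LCK at 1256 CPM. The myeloid, erythroid and epithelial markers summed to 0.576, 0.033 and 0.0906 CPM, with CSF1R and EPCAM at 0. Of B cell markers, CD79A reached 61.3 CPM and MS4A1 0.00981, and fibroblast markers reached 6.76 CPM, all of it COL1A1. Counts-per-million values (CPM) refer to the library total scaled by the trimmed mean of M-values (TMM) over all libraries of an experiment, while fold changes were fitted with factors of the compared groups alone, so that the ratio of CPM means can differ slightly from the printed fold change.

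The label antisense was borne out by position. A partner gene of the same base name was present in the table for 266 transcripts, on the opposite strand in all 266. Exons of 211 transcripts overlapped exons of the partner, and the transcript and partner started within 1000 bases of each other in 88. By the table's coordinates (GRCh38), 223 transcripts overlapped an exon of the partner or of a coding gene on the opposite strand, 28 overlapped a gene span without exon overlap and 15 lay head to head with a gene. The remaining 2, FOXD2-AS1 and TRG-AS1, had none of these positions. In GENCODE release 29, 203 were typed antisense, and KCNJ5-AS1 and KRT10-AS1 were typed protein coding. These 4 names were looked up after the counts were known. Exons of 33 transcripts also overlapped a gene on the same strand. The transcripts lay on 23 chromosomes, had 441 to 32764 exonic bases (median 3832, against 4309 over all genes tested at heat) and a GC content of 33.2% to 65.7% (median 49.7%, against 49.3%).

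As a group they were a small part of the RNA. Their summed counts took a median of 0.226% of a library in A-Ctrl and 0.189% in Ctrl. Their levels per kilobase of exon in A-Ctrl ran from 0.104 to 32.5 CPM per kb, with a median of 1.83. The 6 highest were VPS9D1-AS1 (32.5 CPM per kb), LCT-AS1 (28.1), CDK6-AS1 (22.6), HSD17B1-AS1 (22.1), FGD5-AS1 (20.3) and HHIP-AS1 (14.8). Chosen for their level, 5 of the 6 stood above their partners. VPS9D1-AS1 stood at 32.5 CPM per kb beside 1.16 for VPS9D1, whose product carries an exchange factor domain for Rab GTPases. LCT-AS1 stood at 28.1 beside 1.23 for LCT, the intestinal lactase gene, and HSD17B1-AS1 at 22.1 beside 0.36 for HSD17B1, an enzyme of estradiol synthesis. FGD5-AS1 stood at 20.3 beside 1.49 for FGD5, and HHIP-AS1 at 14.8 beside 7.13 for HHIP, which binds hedgehog ligands. CDK6-AS1 was the exception among the 6, at 22.6 beside 56.2 CPM per kb for CDK6, the kinase that acts with D cyclins in G1. Over all pairs, the partner's mean count was below that of the antisense transcript in 70, at least 10 times it in 107 and at least 100 times it in 7. Reads of a partner that end up on the wrong strand would weigh most in the last group, and their part was not tested. Just inside the minimum, 23 transcripts had mean counts of 51.2 to 59.7, with median log2 fold changes of 0.20 at heat and 0.00, -0.01 and -0.10 in the 3 waits. Just outside it, 34 genes with mean counts of 40.4 to 49.8 had medians of 0.23 at heat and -0.35, -0.21 and -0.36 in the waits. Of those inside, HSDL2-AS1, FAM13A-AS1, SNTG2-AS1, TAPT1-AS1, KANSL1L-AS1 and TEDC2-AS1 met the minimum only through the spun libraries. The gap between inside and outside in the waits therefore rests in part on the selection.

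Differences were tested for all genes with edgeR's quasi-likelihood test, with Benjamini-Hochberg adjustment over all genes tested, and a gene was called at an adjusted p under 0.05. After heat, 57 of the 268 antisense lncRNAs rose and 10 fell. Of all 16655 genes tested, 10.6% were called up and 10.2% called down. The median log2 fold change was 0.09 over the antisense lncRNAs and 0.01 over all genes. Among the 12515 genes with a mean count of 50 or more, 1108 rose and 1650 fell. A log2 fold change above 1 was reached by ZNF436-AS1 and by ZNF252P-AS1, and the number of all genes above 1 is not given here. ZNF252P-AS1 lay below 2 CPM and was picked out after its value was seen (1.97 ± 0.19 SE, adjusted p = 2.6e-06). The genes expected to follow a heat shock moved unevenly. HSPA1B, an inducible HSP70 gene, rose by 0.63 ± 0.06 and DNAJB1, its HSP40 partner, by 0.17 ± 0.03, while HSPE1, the mitochondrial cochaperone, rose by 0.34 ± 0.09. HSPH1, an HSP70 exchange factor, was lower by a log2 fold change of -0.32 ± 0.06 and HSPD1, the mitochondrial chaperonin, of -0.23 ± 0.04. HSPA1A was not called (0.44 ± 0.28, adjusted p = 0.30), and its sequence is nearly that of HSPA1B, so that its count is uncertain. At hypg60 against Ctrl60, HSPA1B rose by 2.69 ± 0.08, HSPA1A by 2.61 ± 0.28 and DNAJB1 by 1.46 ± 0.05, more than at heat. HSPH1, HSPE1 and HSPD1 were not called there. At hypg15 against Ctrl, HSPA1B rose by 0.63 ± 0.08 and DNAJB1 by 0.34 ± 0.04. HSPH1, HSPE1 and HSPD1 were lower there (-0.84, -0.51 and -0.59). What moved these genes at 9 g was not tested.

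**Figure D1:**
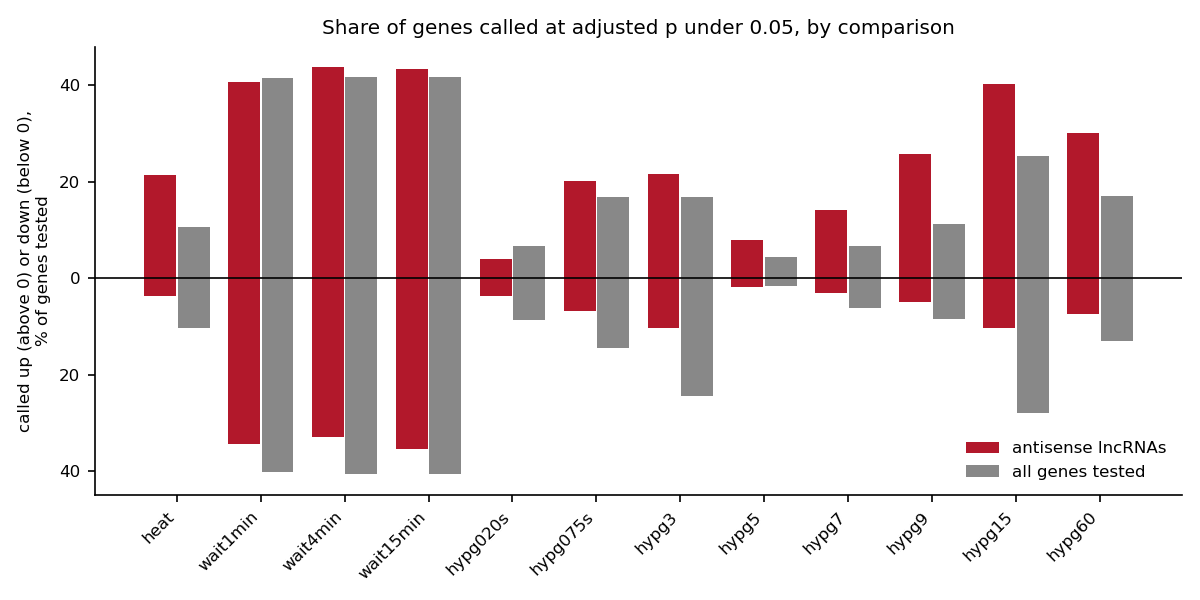
Share of genes called at an adjusted p under 0.05, in percent of the genes tested, for the antisense lncRNAs (red) and all genes (grey), with calls up drawn above 0 and calls down below 0. At heat 21.3% of the antisense lncRNAs were called up and 3.73% down, and in the 3 waits after 300 g the bars up lie near those of all genes and the bars down are shorter.

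ZNF436-AS1, antisense to a zinc finger gene, had 3.53, 3.57, 2.73 and 3.13 CPM in the 4 A-Ctrl libraries and 7.01, 7.46, 6.60 and 6.81 CPM after heat. The heat libraries all lay above the control libraries, and the log2 fold change was 1.19 ± 0.11 (SE; adjusted p = 1.1e-06). In the 3 waits it stayed between 2.61 and 3.81 CPM, across the range of the controls, and was not called by edgeR with TMM. Alternatives called it up at wait4min, with library totals (0.31, adjusted p = 0.0296) and with a curve against GC content removed (0.41, adjusted p = 0.0032), and the latter also at wait1min (0.35, adjusted p = 0.0129). The rise was not particular to heat. At 9 g, ZNF436-AS1 had 7.20 to 9.78 CPM at hypg15 against 4.20 to 5.04 in Ctrl. At hypg60 it had 8.80 to 11.0 CPM against 4.92 to 5.74 in Ctrl60. RPS6KB2-AS1, antisense to the gene of S6 kinase 2, a growth-signalling kinase, went from 2.05, 2.75, 1.74 and 2.15 CPM to 4.06, 4.25, 3.72 and 3.86 CPM. Its groups did not overlap either (0.96 ± 0.14, adjusted p = 0.00011). All 470 of its exonic bases lie opposite RPS6KB2 exons, and the partner's mean count was 52.3 times its own.

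SLC9A3-AS1, antisense to the gene of an epithelial sodium and proton exchanger, went from 5.80, 6.48, 5.24 and 6.26 CPM to 10.0, 10.2, 9.62 and 11.1 CPM (0.86 ± 0.09, adjusted p = 4.2e-06). THUMPD3-AS1, antisense to a tRNA methyltransferase gene, went from 24.9, 22.2, 24.3 and 21.9 CPM to 39.7, 40.1, 38.11 and 39.9 CPM (0.83 ± 0.05, adjusted p = 2.7e-08). Neither pair of groups overlapped. Both also rose after the spin, by 1.08 ± 0.08 and 1.11 ± 0.05 at wait1min, and stood lower at heat than there (-0.32 ± 0.07 and -0.38 ± 0.05, adjusted p = 0.00027 and 6.3e-07). ADIRF-AS1, antisense to a regulator of fat cell formation, had 2.88, 3.77, 2.98 and 2.64 CPM in A-Ctrl and 4.41, 4.84, 4.93 and 5.17 CPM after heat (0.73 ± 0.11, adjusted p = 0.00028). RASSF1-AS1, antisense to a tumour suppressor gene of the Ras association family, had 2.09, 2.59, 2.43 and 1.66 CPM and then 3.33, 3.38, 3.34 and 3.50 CPM (0.69 ± 0.13, adjusted p = 0.0013). In both, every heat library lay above every control library. At hypg60, SLC9A3-AS1 also stood higher, with 8.88 to 14.0 CPM against 3.46 to 5.33 in Ctrl60. RPS6KB2-AS1, THUMPD3-AS1, ADIRF-AS1 and RASSF1-AS1 had higher means at hypg60 than in Ctrl60, with groups that met.

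The falls at heat were smaller. SCUBE3-AS1, antisense to a gene of a secreted EGF-like protein, went from 3.72, 3.89, 3.72 and 3.21 CPM to 2.40, 3.28, 2.33 and 2.26 CPM. Replicate 66 lay within the range of the controls and the other 3 below it (-0.43 ± 0.14, adjusted p = 0.032). ENTPD1-AS1, antisense to the gene of CD39, an ectonucleotidase on lymphocytes, went from 4.25, 3.85, 4.11 and 4.38 CPM to 3.02, 3.55, 2.81 and 3.20 CPM (-0.33 ± 0.11, adjusted p = 0.043). ZEB1-AS1, antisense to a zinc finger repressor of epithelial genes, went from 7.09, 7.62, 6.98 and 7.02 CPM to 5.38, 4.98, 5.87 and 6.26 CPM (-0.28 ± 0.09, adjusted p = 0.029). In ENTPD1-AS1 and ZEB1-AS1 the groups did not overlap. PSMA3-AS1, antisense to a proteasome subunit gene, had 15.6, 14.7, 13.0 and 14.7 CPM after heat against 17.0 to 19.0 CPM in A-Ctrl (-0.26 ± 0.07, adjusted p = 0.012). HHIP-AS1 fell from 30.0 to 33.6 CPM to 23.4 to 27.6 CPM (-0.26 ± 0.05, adjusted p = 0.0025). SNAI3-AS1, antisense to a gene of the Snail repressor family, had 12.2 to 12.8 CPM against 13.8 to 18.5 CPM (-0.25 ± 0.08, adjusted p = 0.038). The other 4 that fell lay between -0.25 and -0.20. At hypg60 the named falls did not all go the same way. SCUBE3-AS1 had 2.42 to 3.32 CPM there against 0.691 to 1.28 in Ctrl60, and SNAI3-AS1 10.1 to 16.8 against 5.89 to 9.52. PSMA3-AS1 and HHIP-AS1 lay below Ctrl60, and ENTPD1-AS1 and ZEB1-AS1 overlapped it.

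The count of 10 falls depended more on single libraries than that of 57 rises. Leaving out a single library gave 48 to 57 rises but 4 to 9 falls. The falls numbered 6, 6, 5 and 8 without A-Ctrl replicates 49, 50, 51 and 52, and 4, 9, 5 and 4 without heat replicates 65, 66, 67 and 68. Of the 8 such fits, the call of SCUBE3-AS1 held in 3, of ENTPD1-AS1 in 2, of ZEB1-AS1 in 5, of SNAI3-AS1 in 2 and of RHPN1-AS1 in 3, while those of PSMA3-AS1 and HHIP-AS1 held in all 8. The call of ENTPD1-AS1 was also lost with DESeq2 (adjusted p = 0.0969), library totals (0.0729), no filter (0.0513) and the curve against GC content removed (0.0528), and that of ZEB1-AS1 with DESeq2 (0.0505). Those of SCUBE3-AS1, SNAI3-AS1 and RHPN1-AS1 were lost with library totals (0.0516, 0.0698 and 0.0648). With library totals in place of TMM, 65 rose and 3 fell, beside 2252 rises and 1173 falls among all 16655 genes. With all groups of the experiment in 1 model, 49 rose and 33 fell, beside 1461 rises and 4027 falls among all 18621 genes.

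**Figure D2:**
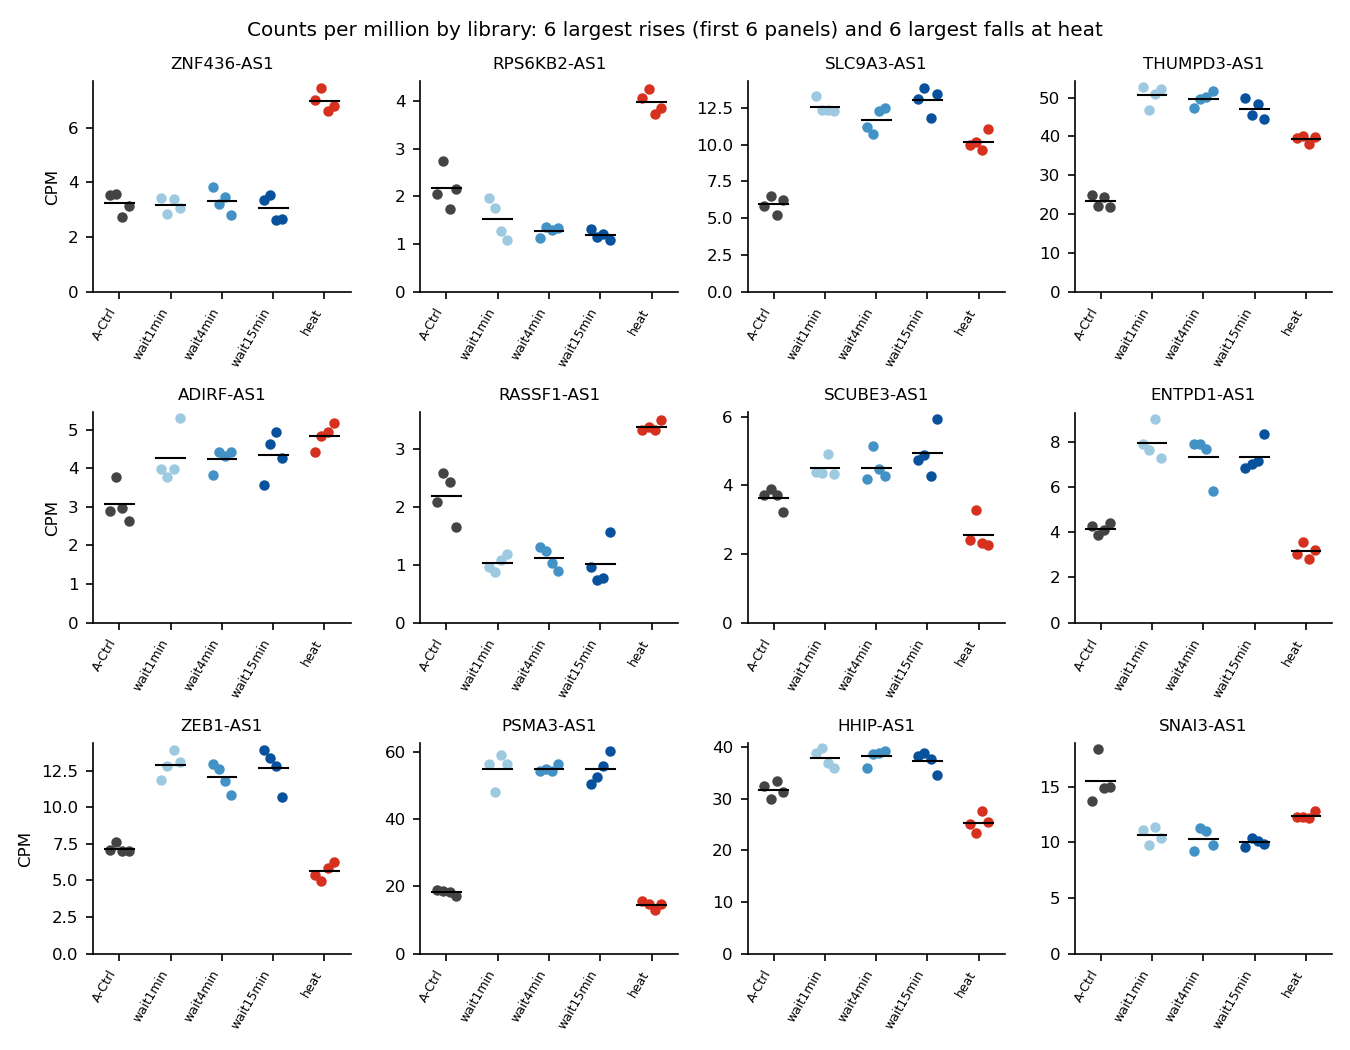
CPM of the 6 largest rises (first 6 panels) and 6 largest falls at heat, with 1 point per library (4 per group) and a line at the group mean. The heat libraries (red) of ZNF436-AS1 sit between 6.60 and 7.46 CPM, above all libraries of the other 4 groups, while PSMA3-AS1 stands near 15 CPM at heat and above 48 CPM in every 300 g library.

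The promoters of the transcripts with the largest changes at heat are shown because the heat shock factor binds a known repeated element. RefSeq promoters (GRCh38.p14, 250 bases before to 50 after the start) were matched by symbol for 210 of the 268. The letters GAANNTTC or TTCNNGAA, searched on both strands as each reads the same on either, occurred in 18 of the 210 (8.57%), against 3738 of 27305 promoters in all (13.7%). Among matched transcripts called up at heat they occurred in 3 of 47. The median GC content was 66.0% in these promoters and 58.3% in all. The 4 sequences are those of the named transcripts with the largest rises and falls whose RefSeq start lies within 1000 bases of the start in the count table, a condition added after the values were seen, which passed over SCUBE3-AS1 (34825 bases away) and ZEB1-AS1 (1352), whose falls were larger than that of PSMA3-AS1. RPS6KB2-AS1 had no entry. Capitals mark the 50 bases from the start on, and none of the 4 holds either set of letters. The coordinates are chr1:23368721-23369020 on the plus strand for ZNF436-AS1, chr5:472986-473285 on the plus strand for SLC9A3-AS1, chr10:96090186-96090485 on the minus strand for ENTPD1-AS1 and chr14:58298088-58298387 on the minus strand for PSMA3-AS1.
ZNF436-AS1: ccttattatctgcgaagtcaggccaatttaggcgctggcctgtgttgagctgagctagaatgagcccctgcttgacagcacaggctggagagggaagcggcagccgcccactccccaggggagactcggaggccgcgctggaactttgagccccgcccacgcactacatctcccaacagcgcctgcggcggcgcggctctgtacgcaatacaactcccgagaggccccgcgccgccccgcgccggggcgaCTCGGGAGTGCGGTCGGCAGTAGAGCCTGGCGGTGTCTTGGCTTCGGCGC
SLC9A3-AS1: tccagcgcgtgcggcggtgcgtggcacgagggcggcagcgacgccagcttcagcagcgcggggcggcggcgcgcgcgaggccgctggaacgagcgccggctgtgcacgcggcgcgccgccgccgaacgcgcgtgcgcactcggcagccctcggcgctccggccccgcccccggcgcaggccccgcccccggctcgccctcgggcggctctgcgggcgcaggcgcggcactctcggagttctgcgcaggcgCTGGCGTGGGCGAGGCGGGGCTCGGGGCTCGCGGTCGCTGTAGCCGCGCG
ENTPD1-AS1: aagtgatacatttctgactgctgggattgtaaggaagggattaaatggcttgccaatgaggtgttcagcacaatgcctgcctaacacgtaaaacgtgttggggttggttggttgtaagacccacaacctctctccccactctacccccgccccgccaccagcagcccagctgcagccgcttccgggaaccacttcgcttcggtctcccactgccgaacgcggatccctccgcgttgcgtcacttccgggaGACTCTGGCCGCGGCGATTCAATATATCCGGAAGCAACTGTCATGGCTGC
PSMA3-AS1: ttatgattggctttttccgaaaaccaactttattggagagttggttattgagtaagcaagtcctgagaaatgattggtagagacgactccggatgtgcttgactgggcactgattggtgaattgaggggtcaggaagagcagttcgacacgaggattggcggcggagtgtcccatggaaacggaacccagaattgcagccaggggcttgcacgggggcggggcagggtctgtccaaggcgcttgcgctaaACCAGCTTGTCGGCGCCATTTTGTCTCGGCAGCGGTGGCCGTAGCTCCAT

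The spin at 300 g moved most of the antisense lncRNAs, in both directions. Against A-Ctrl, 109 rose and 92 fell at wait1min, where 41.4% of all genes tested were called up and 40.1% called down. At wait4min 117 rose and 88 fell (41.7% and 40.6% of all genes), and at wait15min 116 rose and 95 fell (41.8% and 40.5%). The shares of rises are near those of all genes, and the shares of falls (34.3%, 32.8% and 35.4%) lie below them. With the count minimum taken over the other 68 libraries, an alternative chosen after the data were seen, 265 genes qualified, and 100 rose and 95 fell at wait1min, 108 and 94 at wait4min, and 107 and 102 at wait15min. The 3 comparisons share their controls with each other and with heat. A log2 fold change above 1 was called for 32, 33 and 34 transcripts, and a change below -1 for 5, 5 and 9. Of all genes, 3975, 3853 and 3905 were called above 1 and 796, 697 and 833 below -1. The transcripts above 1 include CELF2-AS1, KANSL1L-AS1, FAM13A-AS1 and TAPT1-AS1, the last 3 with 2.69, 2.39 and 1.18 at wait1min. These met the count minimum only through the spun libraries, so that the counts above 1 rest in part on that selection. The split depended on the scaling: with library totals alone the median of all genes moved from 0.01 to 0.25, 0.27 and 0.27, and the calls became 144 up and 56 down, 145 and 55, and 150 and 55, beside 8527 and 5218, 8753 and 5144, and 8729 and 5130 of all genes. TMM factors were 0.879 to 0.895 in A-Ctrl and 1.02 to 1.08 in the waits. The raw share of counts on the 268 transcripts had medians of 0.325%, 0.322% and 0.320% in the waits, against 0.226% in A-Ctrl and 0.245% at heat. The T cell markers also moved, from a median sum of 4856 CPM in A-Ctrl to 3052, 3086 and 3130 CPM in the waits, with no overlap. The median B cell sum went from 61.3 to 31.2, 30.1 and 30.6 CPM. That of the fibroblast markers went from 6.77 to 4.50, 4.60 and 4.75 CPM, and neither overlapped. At heat the T cell sum was 4369 to 4790 CPM, below the 4792 to 4918 CPM of A-Ctrl. The part of what moved these markers in the results was not tested. In bulk RNA, a change of the transcript itself and a change in the total RNA of the cell cannot be told apart.

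SH3BP5-AS1, antisense to the gene of an adaptor that activates Rab11, had the largest mean rise over the 3 waits among those at 2 CPM or more. It had 4.74, 3.06, 4.33 and 3.74 CPM in A-Ctrl and 24.8, 21.2, 24.0 and 21.2 CPM at wait1min. All 12 libraries after the spin lay between 20.6 and 25.1 CPM, far above the controls, and the log2 fold changes were 2.50 ± 0.10, 2.47 ± 0.09 and 2.54 ± 0.09 at the 3 waits (adjusted p = 1.1e-13, 7.4e-17 and 7.1e-15). Its partner was slightly lower, with log2 fold changes of -0.17, -0.14 and -0.10. THAP9-AS1, antisense to a gene derived from a DNA transposase, went from 8.34, 7.07, 6.81 and 6.26 CPM to 28.1, 28.6, 28.1 and 28.8 CPM at wait1min (1.99 ± 0.07, adjusted p = 4.6e-14). PSMA3-AS1 went from 19.0, 18.7, 18.3 and 17.0 CPM to 56.6, 48.2, 59.2 and 56.7 CPM (1.59 ± 0.06, adjusted p = 1.2e-13). In both, every library of the 3 waits lay above every control library, and the partners also rose, by 1.69 ± 0.13 for THAP9 and 1.14 ± 0.08 for PSMA3 at wait1min.

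SLC16A4-AS1, antisense to a gene of the monocarboxylate transporter family, rose by 2.09 ± 0.11, 1.99 ± 0.09 and 2.06 ± 0.11. CCDC18-AS1, antisense to a coiled-coil protein gene, rose by 1.60 ± 0.09, 1.69 ± 0.09 and 1.73 ± 0.08, and CELF2-AS1, antisense to the gene of a splicing regulator of T cells, by 1.66 ± 0.11, 1.63 ± 0.11 and 1.57 ± 0.11. The count of CELF2 was 59.5 times that of CELF2-AS1, and CELF2 itself rose by 0.82, 0.81 and 0.81. CELF2-AS1 met the count minimum only through the spun libraries.

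BRWD1-AS2, antisense to a bromodomain gene, had the largest mean fall over the 3 waits among those called down in all 3 at 2 CPM or more. It had 2.43, 2.87, 2.34 and 2.72 CPM in A-Ctrl, then 1.39, 1.52, 1.24 and 0.867 CPM at wait1min, 0.954, 1.17, 0.849 and 1.17 CPM at wait4min, and 0.934, 1.15, 0.764 and 0.891 CPM at wait15min. No spun library reached the lowest control, and the log2 fold changes were -1.04 ± 0.17, -1.31 ± 0.16 and -1.46 ± 0.16 (adjusted p = 1.7e-05, 8.6e-08 and 1.1e-07). NAPA-AS1, antisense to the gene of alpha-SNAP, a factor of vesicle fusion, went from 10.7, 12.0, 10.7 and 11.0 CPM to 5.29, 5.51, 5.82 and 4.84 CPM at wait1min (-1.05 ± 0.08, adjusted p = 1.0e-09). RASSF1-AS1 had 0.965, 0.875, 1.08 and 1.19 CPM at wait1min, below its lowest control of 1.66 CPM (-1.11 ± 0.18, adjusted p = 1.7e-05). GOLGA4-AS1, antisense to a golgin gene, changed by -1.01 ± 0.19 at wait1min, FOXN3-AS1, antisense to a forkhead repressor gene, by -0.91 ± 0.14, and TIAM1-AS1, antisense to the gene of a Rac exchange factor, by -0.97 ± 0.14, and all 3 were called at each wait. When a curve against GC content was removed from each library, RASSF1-AS1 was called at none of the 3 waits by edgeR (adjusted p = 0.0998, 0.160 and 0.0736), TIAM1-AS1 at wait15min alone, and BRWD1-AS2 and FOXN3-AS1 at wait4min and wait15min.

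The 6 transcripts of highest level per kilobase stayed within a log2 fold change of 1. At wait1min the log2 fold changes were -0.43 for VPS9D1-AS1, 0.09 for LCT-AS1 (adjusted p = 0.055, not called, but called in 3 of the 8 fits that left out a library, with library totals at 0.34 and with all groups in 1 model at 0.10), 0.36 for CDK6-AS1, -0.79 for HSD17B1-AS1, 0.30 for FGD5-AS1 and 0.24 for HHIP-AS1. With the curve against GC removed, VPS9D1-AS1 stood at 0.33, LCT-AS1 at -0.13 and FGD5-AS1 at -0.13, so that the signs of these 3 rest on the treatment of GC. HSD17B1-AS1 went to -0.03 (adjusted p = 0.527) and was not called.

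With the filter on low counts, edgeR called no antisense lncRNA up or down at wait15min against wait1min (19 of 268 at an unadjusted p under 0.05). DESeq2 called none either. Of all 17446 genes tested by edgeR, 0.0115% were called up and 0.138% called down. Without the filter, edgeR called 1 antisense lncRNA down, beside 22 rises and 256 falls among all 34548 genes. The comparison of wait15min with wait1min was added after the data were seen. It uses no control library.

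**Figure D3:**
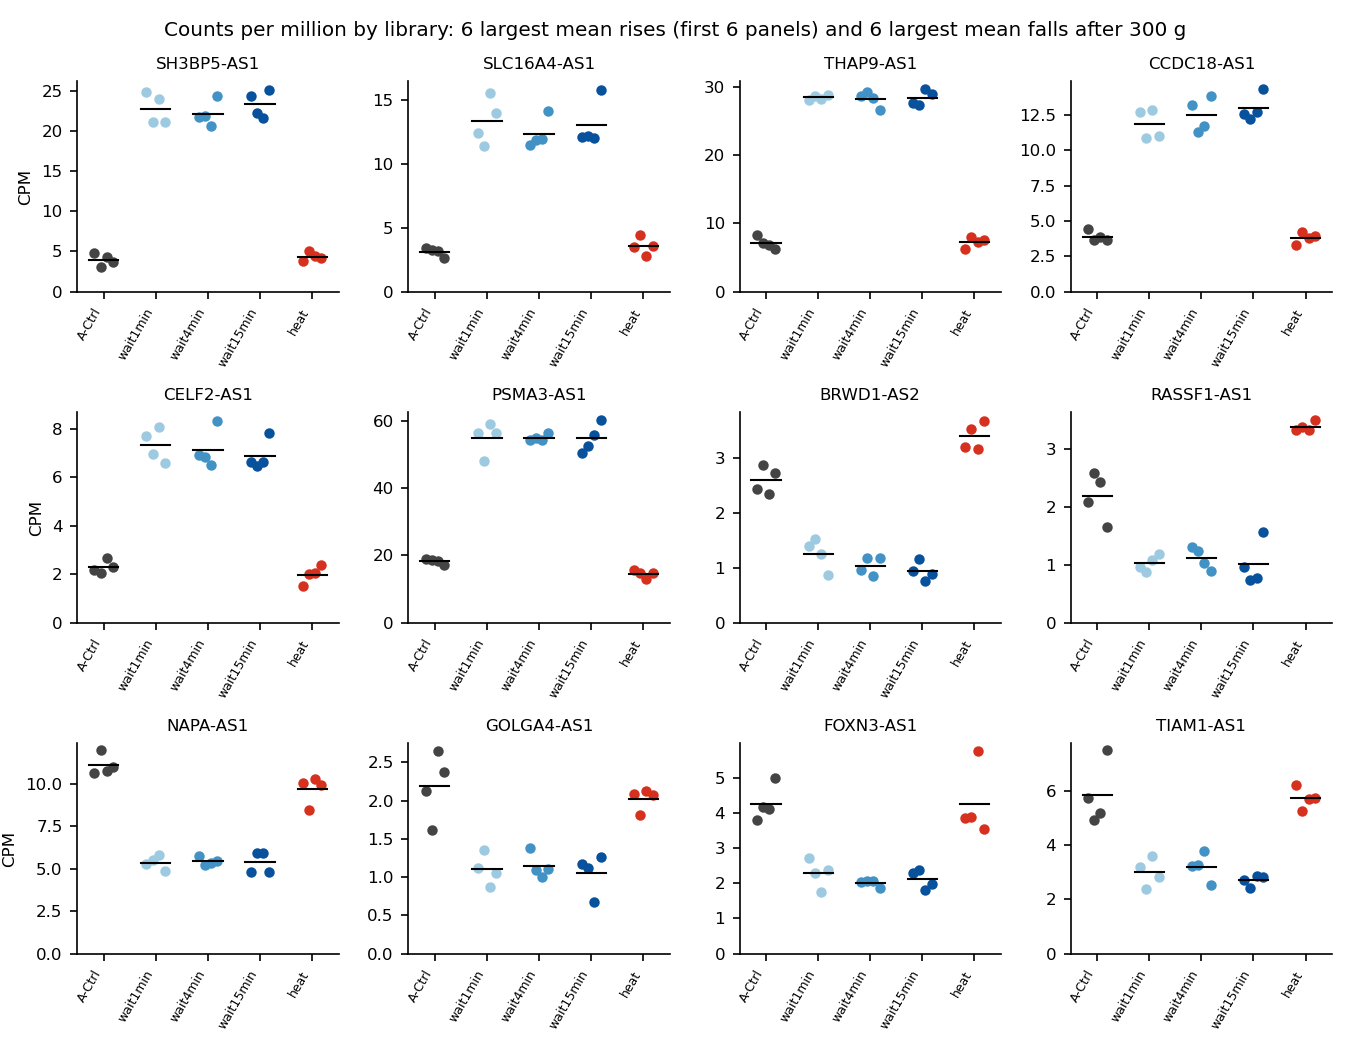
CPM of the 6 largest mean rises (first 6 panels) and 6 largest mean falls over the 3 waits after 300 g, with 1 point per library (4 per group) and a line at the group mean. SH3BP5-AS1 has 20.6 to 25.1 CPM in the 12 spun libraries and at most 5.02 CPM in the A-Ctrl and heat libraries.

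The direction of change after the spin went with base composition. Ordered by the GC content of the transcript, a grouping chosen after the data were seen, 59 of the 89 transcripts of lowest GC (33.2% to 46.2%) rose at wait1min and 12 fell. Of the 90 of highest GC (53.4% to 65.7%), 17 rose and 59 fell. The median log2 fold changes were 0.59 and -0.45. The relation was not particular to the antisense lncRNAs: of all genes tested in the same range of low GC, 76.4% rose and 10.2% fell (median 0.94), and in that of high GC, 11.4% rose and 70.3% fell (median -0.60). At wait4min the calls were 63 up and 11 down at low GC (all genes 76.3% and 11.5%) and 19 and 58 at high GC (11.7% and 69.6%), and at wait15min 62 and 11 (75.9% and 11.4%), and 18 and 58 (12.6% and 69.2%). Length went the same way: 60 of the 90 longest transcripts rose at wait1min and 14 fell, while 22 of the 89 shortest rose and 45 fell. Of all genes in these ranges of length, 52.2% rose and 35.4% fell among the long and 32.4% and 40.9% among the short. At heat the calls were 15 up and 5 down at low GC (all genes in that range 6.82% and 10.5%) and 23 and 3 at high GC (14.5% and 8.59%). With the curve against GC removed, the waits had 146 up and 41 down, 152 and 43, and 144 and 45, beside 7507 and 4714, 7723 and 4933, and 7663 and 4870 of all genes, whose median stood at 0.13. What sets the relation to GC was not tested.

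**Figure D4:**
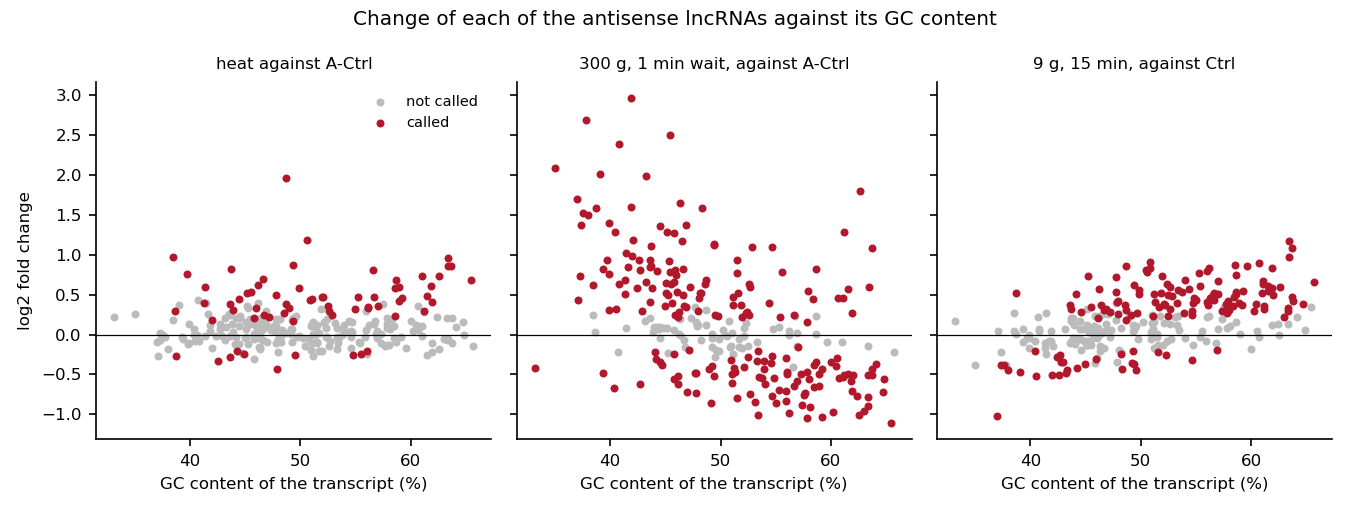
Log2 fold change of each of the 268 antisense lncRNAs against the GC content of its transcript, at heat, at wait1min and at hypg15, with called transcripts in red. At wait1min the cloud falls from low to high GC, with medians of 0.59 and -0.45 in the 89 transcripts of lowest and 90 of highest GC, while at hypg15 it rises, with medians of -0.05 and 0.38.

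Heat and the spin were compared directly, with no control library. Against wait1min, 103 antisense lncRNAs were higher at heat and 109 lower, where 39.1% of all 17489 genes tested were called up and 42% called down. With the curve against GC removed, 47 were higher and 148 lower, beside 3906 and 8452 of all 17235 genes, whose median stood at -0.20. The 4 transcripts that follow were chosen as those called in opposite directions against A-Ctrl at heat and in all 3 waits, with the largest direct difference, so that their directions restate the choice. PSMA3-AS1 was lower at heat than at wait1min by a log2 fold change of -1.95 ± 0.07 (adjusted p = 3.4e-15), with 13.0 to 15.6 CPM against 48.2 to 59.2 CPM. RASSF1-AS1 was higher by 1.70 ± 0.14 (adjusted p = 1.5e-09), BRWD1-AS2 by 1.41 ± 0.16 (adjusted p = 9.6e-08) and RPS6KB2-AS1 by 1.37 ± 0.15 (adjusted p = 1.1e-07). In these 4, no heat library overlapped a wait1min library. The opposite directions against A-Ctrl were less firm in 3 of them: with the curve against GC removed, RPS6KB2-AS1 turned to 0.25 at wait1min, and RASSF1-AS1 and BRWD1-AS2 were not called there (adjusted p = 0.0998 and 0.0834). In that edgeR fit RPS6KB2-AS1 was not called at wait4min (-0.05, adjusted p = 0.778) or wait15min (-0.14, adjusted p = 0.466) either. RASSF1-AS1 was likewise called at no wait, while BRWD1-AS2 was called at wait4min and wait15min. With library totals RPS6KB2-AS1 was not called at wait1min (adjusted p = 0.216), and its call held in 5 of the 8 fits that left out a library.

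Roles were assigned by patterns in the symbol of the partner, so that a class does not hold every gene of its kind. A class can also hold genes of another kind whose symbols match, such as MCM3AP, KIF9 and TMPO in that of replication, repair and cell cycle. Counts by role are small, and are given as a description beside the shares of all genes, 10.6% up and 10.2% down at heat and 41.4% and 40.1% at wait1min. Of the 9 antisense to genes of immune and T cell function, none was called at heat by edgeR in the fit of heat and A-Ctrl alone (2 at an unadjusted p under 0.05), while PRKCQ-AS1 was called with all groups in 1 model (-0.17, adjusted p = 0.0117), and 5 rose and 1 fell at each wait. The 5 included PRKCQ-AS1, antisense to the gene of protein kinase C theta, which signals from the T cell receptor (0.52 ± 0.04 at wait1min). The 8 antisense to replication, repair and cell cycle genes gave 6 rises and 2 falls at wait1min, with CDK6-AS1 at 0.36 ± 0.07 while CDK6 rose by 2.34 ± 0.06. Of the 9 antisense to ubiquitin and proteasome genes, 4 rose and 3 fell at wait1min, and at heat 2 rose and PSMA3-AS1 fell. Of the 16 with partners in signalling and trafficking, 9 rose and 4 fell at wait1min, and of the 30 with zinc finger, transcription and chromatin partners, 9 rose and 11 fell. At heat, 6 of these 30 rose, ZNF436-AS1 among them, and ZEB1-AS1 fell. Of the 6 with partners in RNA processing and translation, RPS6KB2-AS1, placed there by its symbol, and THUMPD3-AS1 rose at heat. DNAJC9-AS1, with a chaperone partner, was not called at heat (0.36, adjusted p = 0.12). The other 189, which include SNAI3-AS1, gave 43 rises and 7 falls at heat and 74 and 68 at wait1min.

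Transcripts and partners were set side by side within each library, as the log2 ratio of antisense to sense count, which needs no scaling between libraries. The ratio was tested with limma over all opposite-strand pairs of the table, of which 18.1% changed at heat, 68.6% at wait1min, 69.7% at wait4min and 70.9% at wait15min. Of the pairs formed by these transcripts, 37 rose and 7 fell among 231 at heat, 107 and 74 among 232 at wait1min, 108 and 74 among 232 at wait4min, and 100 and 79 among 234 at wait15min. The antisense count was below the sense count in 191 pairs of A-Ctrl. Of the partners, 233 were tested at heat, and 7.3% were called up and 16.3% called down (10.6% and 10.2% of all genes), with a median log2 fold change of -0.01.

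The pairs of lowest adjusted p at heat show how the ratio can shift on either side. THUMPD3-AS1 rose while THUMPD3 had a median of 46.6 CPM against 49.2 in A-Ctrl (fitted log2 fold change 0.01 ± 0.05, not called), and the ratio rose by 0.82 ± 0.06 (adjusted p = 0.00022). ZNF436-AS1 rose against ZNF436 at 19.0 CPM and 21.4 CPM (-0.09 ± 0.07), and the ratio rose by 1.27 ± 0.10 (adjusted p = 0.00033). TSPOAP1-AS1 had 26.4, 28.2, 27.4 and 26.3 CPM at heat against 26.8, 24.5, 27.0 and 28.5 CPM, all within the range of the controls. Its partner TSPOAP1, which encodes a binding protein of the mitochondrial translocator protein, rose from 19.7 to 23.7 CPM to 41.5 to 50.7 CPM (1.12 ± 0.07, adjusted p = 2.4e-08). That ratio fell by 1.03 ± 0.11 (adjusted p = 0.0013). RHPN1-AS1 went from 16.6, 16.3, 15.0 and 16.0 CPM to 13.7, 13.0, 13.3 and 12.6 CPM while RHPN1 rose by 0.65 ± 0.05, and the ratio fell by 0.86 ± 0.10 (adjusted p = 0.0017). TSPOAP1 and RHPN1 were also higher after the spin, by 0.85 and 0.95 at wait1min, with log2 fold changes of -0.33 and -0.50 in the antisense transcripts, whose signs turned (0.18 and 0.12) when the curve against GC was removed. At 300 g some pairs parted widely: GOLGA4 rose by 2.80 and BRWD1 by 1.59 at wait1min, where GOLGA4-AS1 and BRWD1-AS2 fell, and the ratios fell by 3.78 ± 0.18 and 2.65 ± 0.18.

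From hypg075s on, more antisense lncRNAs rose than fell at 9 g, and the rises were most numerous at hypg15 and hypg60. Against Ctrl, 11 rose and 10 fell at hypg020s (6.66% and 8.58% of all genes tested were called up and down). At hypg075s 54 rose and 18 fell (16.8% and 14.4%), and at hypg3 58 rose and 28 fell (16.9% and 24.4%). At hypg5 21 rose (4.33%) and 5 fell (1.69%), the latter being CDK6-AS1, HHIP-AS1, KTN1-AS1, MIF-AS1 and ZFHX3-AS1, of which the last 3 were looked up after the count. At hypg7 38 rose and 8 fell (6.64% and 6.19%), at hypg9 69 and 13 (11.3% and 8.34%), and at hypg15 108 and 28 (25.4% and 27.9%). Against Ctrl60, 81 rose and 20 fell at hypg60 (17.1% and 13%). With the curve against GC removed, 6 rose and 13 fell at hypg020s and 33 and 32 at hypg3, where all genes also moved down, with 993 rises and 4319 falls among 15984 and a median of -0.07. At hypg5 the same step gave 20 rises and 12 falls, beside 812 rises and 1705 falls among all 16075 genes. The falls at hypg5 numbered 9 with all groups in 1 model, 8 with DESeq2, and 3 without the filter or with library totals. Without hypg60 replicate 44, a fit chosen after seeing that this library stands apart, 99 rose and 26 fell, beside 3482 rises and 3637 falls among all 16417 genes. The first 7 comparisons share Ctrl. The median log2 fold change was 0.00, 0.03, 0.04, 0.09, 0.10, 0.12, 0.17 and 0.16 from hypg020s to hypg60, and between -0.02 and 0.02 over all genes. Column names of the deposited table mention HEPES for Ctrl60 and for no other group. Among transcripts described below, median levels in Ctrl60 and Ctrl were 0.764 and 0.717 CPM for TEDC2-AS1 and 11.2 and 10.8 CPM for MZF1-AS1. For HHIP-AS1 they were 26.3 and 25.5 CPM. Ctrl60 also differs from Ctrl in its time at 1 g, so these levels cannot tell HEPES and time apart. The sample titles do not say whether hypg60 cells had HEPES. A part of HEPES in the hypg60 changes was not tested.

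Most changes at 9 g were small. At hypg60, in the fit that kept replicate 44, a log2 fold change above 1 was reached by 8 transcripts. The number of all genes above 1 is not given here, so this describes the transcripts alone. The transcripts named here were chosen for the number of exposures at which they were called in a single direction, and those called down at all 8 were CDK6-AS1 and HHIP-AS1. TEDC2-AS1, antisense to a gene of a tubulin complex of the centriole, had 0.381 to 1.11 CPM in Ctrl (median 0.717), 0.891 to 1.65 at hypg020s (median 1.42) and 1.76 to 2.79 at hypg3 (median 1.87). At hypg60 it had 2.12 to 4.41 CPM (median 3.19) against 0.689 to 1.00 in Ctrl60 (median 0.764). The groups were apart at hypg3 and at hypg60 and met at hypg020s. The log2 fold changes were 0.88 ± 0.21 at hypg020s, 1.45 ± 0.19 at hypg3, 0.68 ± 0.23 at hypg9 and 1.93 ± 0.18 at hypg60 (adjusted p = 0.014, 6.4e-05, 0.046 and 5.7e-06).

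MZF1-AS1, antisense to a zinc finger gene of myeloid cells, had 10.0 to 11.8 CPM in Ctrl (median 10.8) and 16.6 to 23.4 at hypg15 (median 17.9). At hypg60 it had 18.4 to 28.9 CPM (median 26.2) against 10.3 to 12.3 in Ctrl60 (median 11.2). Neither pair of groups overlapped, and the log2 fold changes were 0.80 ± 0.09 and 1.18 ± 0.10 (adjusted p = 1.0e-05 and 3.2e-06). STPG3-AS1, of a sperm-tail protein gene, changed by 0.45 ± 0.13 at hypg020s and 1.14 ± 0.21 at hypg60, THBS3-AS1, of a thrombospondin gene, by 0.48 ± 0.14 and 1.17 ± 0.17, and DAAM2-AS1, of a formin gene of Wnt signalling, by 0.26 ± 0.07 and 0.82 ± 0.12. All 5 were called at each of the 8 exposures. The libraries of these exposures also entered the mean for the count minimum, and STPG3-AS1 and TEDC2-AS1 lay close to that minimum, with mean counts of 53.3 and 53.5. STPG3-AS1 had means of 1.03 CPM in Ctrl and 1.06 in Ctrl60, against 2.36 at hypg60. For TEDC2-AS1 these means were 0.73, 0.81 and 3.11 CPM. Whether either would have met the minimum without the exposed libraries was not tested.

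HHIP-AS1 had 23.1 to 26.9 CPM in Ctrl (median 25.5), 20.4 to 24.3 at hypg020s (median 22.3) and 14.8 to 20.6 at hypg15 (median 19.6). At hypg60 it had 14.0 to 19.2 CPM (median 18.0) against 25.0 to 29.7 in Ctrl60 (median 26.3). The groups met at hypg020s and were apart at hypg15 and hypg60, with log2 fold changes of -0.17 ± 0.05, -0.44 ± 0.08 and -0.60 ± 0.08 (adjusted p = 0.048, 0.00041 and 0.00011). CDK6-AS1 had 15.2 to 15.9 CPM in Ctrl (median 15.5), and 12.9 to 14.1 already at hypg020s (median 13.3), below all controls (-0.21 ± 0.05, adjusted p = 0.011). It stood at -0.35 ± 0.07 at hypg60. PRKCQ-AS1 was called down at 7 exposures, with log2 fold changes of -0.17 to -0.24, and at hypg5 its adjusted p was 0.062. OTUD6B-AS1, antisense to a deubiquitinase gene, and TMC3-AS1, antisense to a gene of the transmembrane channel-like family, were called down at 5 exposures each, with the lowest values at hypg15 (-1.02 ± 0.13 and -0.52 ± 0.12). OTUD6B-AS1 had 1.34 to 1.94 CPM there, below the 2.95 to 4.15 CPM of Ctrl.

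**Figure D5:**
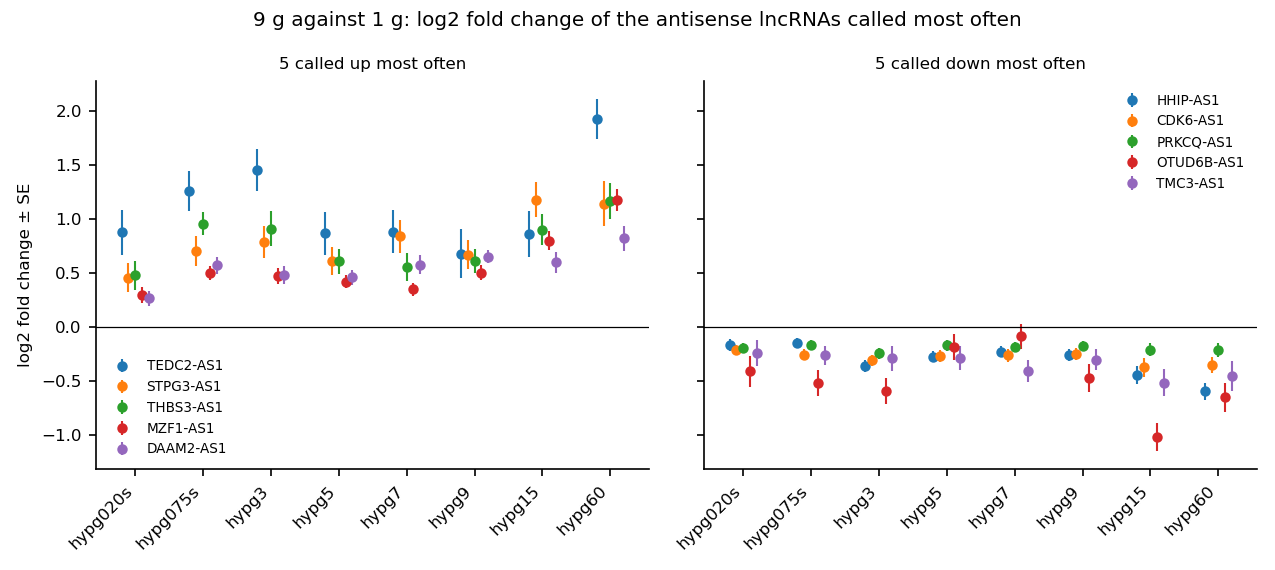
Log2 fold change ± SE at the 8 exposures to 9 g, for 5 of the 6 antisense lncRNAs called up at all 8 (left; the tie was broken by the mean log2 fold change, and DBH-AS1 is not shown) and the 5 called down most often (right), against Ctrl or, at hypg60, Ctrl60. TEDC2-AS1 peaks at 1.45 at hypg3 and 1.93 at hypg60, and the falls of HHIP-AS1 and CDK6-AS1 lie between -0.15 and -0.60.

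At some exposures to 9 g, rises went with high GC. At hypg15, 61 of the 90 transcripts of highest GC rose and 2 fell (all genes in that range 49.1% and 1.79%), and of the 89 of lowest GC 9 rose and 18 fell (4.43% and 60.6%). At hypg3 the calls were 38 up and 0 down at high GC (35.9% and 2.15%), by edgeR (an unadjusted p under 0.05 in either direction in 45 of the 90), and 2 up and 20 down at low GC (1.5% and 50.7%). At hypg075s they were 36 and 1 at high GC (31.1% and 1.99%) and 2 and 11 at low GC (2.72% and 30.4%). At hypg60 they were 38 and 4 at high GC (25.3% and 5.85%) and 12 and 10 at low GC (6.44% and 20.5%), and at hypg9 30 and 3 (17% and 5.35%) and 10 and 7 (4.71% and 10.4%). At hypg020s, hypg5 and hypg7, with fewer calls, they were 9 and 0 (12.2% and 0.63%), 16 and 1 (7.36% and 0.55%) and 20 and 2 (9.52% and 4.19%) at high GC, and 0 and 5 (1.2% and 19.7%), 1 and 1 (1.01% and 2.81%) and 5 and 3 (2.94% and 7.05%) at low GC. The experiments had separate controls and separate libraries, and the difference between them was not tested.

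Set beside other noncoding genes of the same count minimum, heat raised 52 of 135 genes named as divergent transcripts (-DT) and lowered 1, and raised 31 and lowered 5 of 115 genes named LINC, where 10.6% of all genes rose and 10.2% fell. Genes named -AS with a mean count of 1 to 50 gave 45 rises and 2 falls among 239 tested at heat. These lists are described only, with no test between them.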

How the data were processed

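Expression was measured as whole-number counts of read pairs per gene in 80 rRNA-depleted, strand-specific paired-end libraries of Jurkat cells. The authors trimmed reads with Trim Galore 0.6.5, aligned them to GRCh38 with STAR 2.7.3a and counted pairs on the reverse strand with featureCounts and Ensembl annotation 104, and deposited the counts without normalization. The authors' notes name featureCounts 2.0.1, the file header 2.0.3, and DESeq2 1.28.1 was used by the authors. All 80 sample columns were read (0 unused).

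Groups followed the sample titles, although the table's own column names for wait1min ("instant") and wait4min ("1min") differ from them. Each comparison was fitted on its own groups in R 4.3.3 with edgeR 4.0.16 (TMM, filterByExpr with a minimum count of 10, estimateDisp, quasi-likelihood F test), with Benjamini-Hochberg adjustment over all genes tested and calls at an adjusted p under 0.05. SE is the absolute log2 fold change divided by the square root of F. Antisense to sense ratios were log2 values with 0.5 added to both counts, tested with limma 3.58.1 over all opposite-strand pairs. Alternatives were DESeq2 1.42.0, its size factors, library totals, no filter, all groups of an experiment in 1 model, a lowess curve against GC (span 0.3) removed from each library, other count minimums (20 and 100) and leaving out each library of the 300 g and heat comparisons and of hypg15. The tests were tried on simulated data. Tables and figures used Python 3.11.15, numpy 2.4.6, pandas 2.3.3 and matplotlib 3.10.9. GC content came from GENCODE release 29.

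The members and the other gene lists were chosen with earlier results of these data known. Named transcripts followed a rule fixed before the files were read for this work: the 6 of highest count per kilobase in A-Ctrl; the 6 largest rises and 6 largest falls among those called at heat; the 6 largest mean rises and falls over the 3 waits among transcripts whose 3 calls share a sign; the 5 called up and 5 called down in most 9 g comparisons; up to 4 called in opposite directions at heat and in all waits, by the direct difference; and up to 4 of lowest adjusted p for the ratio at heat. All but those for 9 g needed a mean of 2 CPM in A-Ctrl. Promoters were planned for the 2 largest rises and 2 largest falls at heat; the condition on the start was added later. A sign counted as reversed only where the main or the alternative value was called. Library 75 was left out for its low total and undetected transcripts, as were 3 lines of the table without a usable record and 1 broken gene record. Total counts of 22634465 to 41893490 per library leave the lowest of the 268 transcripts, with a mean count of 51.2, with the widest counting error. A marker gene of the B cell list is not reported here.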

Additional observations from a re-analysis of the deposited data

Results flagged for a closer look

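In 18 of 200 groups of libraries looked at, 1 library lay far from the others by its gap to the nearest value. The rule was set so that about 1 in 20 groups passes by chance, a rate not measured in these data. In A-Ctrl these were replicate 50 for LCT-AS1 (53.9 CPM) and replicate 52 for DAAM2-AS1 (16.2 CPM). At wait1min they were replicate 53 for SLC9A3-AS1 (13.3 CPM), replicate 56 for ADIRF-AS1 (5.31 CPM) and replicate 55 for SCUBE3-AS1 (4.91 CPM). At wait4min they were replicate 57 for HHIP-AS1 (36.0 CPM), replicate 60 for ENTPD1-AS1 (5.82 CPM) and FOXN3-AS1 (1.86 CPM), and replicate 58 for RHPN1-AS1 (12.1 CPM). At wait15min replicate 64 lay apart for SLC16A4-AS1 (15.8 CPM) and CELF2-AS1 (7.83 CPM). At heat, replicate 66 lay apart for SCUBE3-AS1 (3.28 CPM) and GOLGA4-AS1 (1.81 CPM), and replicate 67 for FOXN3-AS1 (5.77 CPM). For the summed counts of the 268 transcripts, the libraries apart were wait4min replicate 60 (0.331% of counts), wait15min replicate 64 (0.347%), Ctrl60 replicate 9 (0.205%) and hypg5 replicate 25 (0.218%).

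The 4 transcripts that follow were chosen as called in opposite directions against A-Ctrl at heat and in all 3 waits, and by the size of the direct difference, so that their directions restate the choice. The log2 fold changes of heat against wait1min were -1.95 for PSMA3-AS1, 1.70 for RASSF1-AS1, 1.41 for BRWD1-AS2 and 1.37 for RPS6KB2-AS1, tested with no control library. Against A-Ctrl at wait1min, with the curve against GC removed, RPS6KB2-AS1 turned to 0.25 and RASSF1-AS1 and BRWD1-AS2 were not called. RPS6KB2-AS1 and RASSF1-AS1 were called at none of the 3 waits in that fit.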

How the results depend on the processing

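Of the 37 named transcripts at heat and the 3 waits, 148 values were refitted under each alternative. With size factors of the DESeq2 type 148 kept their side of the threshold without a reversal, with DESeq2 146, without the filter 145, with all groups in 1 model 142, with library totals 128 and with the GC curve removed 103. A change of sign where neither value was called counted as unchanged. Leaving out single libraries gave 1150 unchanged, 28 weaker and 6 stronger.

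With the GC curve removed, 25 values reversed. At wait1min these were VPS9D1-AS1 0.33, LCT-AS1 -0.13, FGD5-AS1 -0.13, ZNF436-AS1 0.35, RPS6KB2-AS1 0.25, SNAI3-AS1 0.026, TEDC2-AS1 0.62, MZF1-AS1 0.33, TMC3-AS1 -0.54, TSPOAP1-AS1 0.18 and RHPN1-AS1 0.12. At wait4min they were VPS9D1-AS1 0.36, FGD5-AS1 -0.10, TEDC2-AS1 0.59, MZF1-AS1 0.32, TMC3-AS1 -0.63, TSPOAP1-AS1 0.24 and RHPN1-AS1 0.13, and at wait15min VPS9D1-AS1 0.33, FGD5-AS1 -0.13, TEDC2-AS1 0.55, MZF1-AS1 0.26, TMC3-AS1 -0.62, TSPOAP1-AS1 0.24 and RHPN1-AS1 0.16. With library totals 4 reversed: LCT-AS1 to 0.24 and 0.22, and TSPOAP1-AS1 to 0.012 and 0.0083, at wait4min and wait15min. The cause was not tested.

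Counts moved by more than 1.5 times as follows. With library totals, falls numbered 3 at heat, 56, 55 and 55 in the waits, 3 at hypg5 and 8 at hypg9. With the GC curve removed, falls numbered 41, 43 and 45 in the waits and 12 at hypg5, and rises 47 at heat against wait1min (148 falls), 6 at hypg020s (13 falls) and 33 at hypg3 (32 falls). With all groups in 1 model, falls numbered 33 at heat (49 rises) and 9 at hypg5. DESeq2 gave 8 falls at hypg5, and no filter gave 3 there and 1 at wait15min against wait1min. With library 75 kept, 14 fell at hypg15. The cause was not tested. At a mean count of 100 or more, 171 transcripts remain, so that fewer could be called: 36 rose at heat, 72 at wait1min and 77 at wait15min, where 63 fell, and 68 were higher at heat than at wait1min. At a mean count of 20 or more, 405 transcripts could be called, and 159 were higher at heat than at wait1min.

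Leaving out single libraries gave 48 to 57 rises and 4 to 9 falls at heat, 107 to 112 and 84 to 91 at wait1min, 112 to 117 and 81 to 87 at wait4min, 110 to 117 and 88 to 93 at wait15min, 94 to 103 and 105 to 112 for heat against wait1min, 0 and 0 for wait15min against wait1min, and 100 to 113 and 20 to 26 at hypg15. Without hypg60 replicate 44, chosen after seeing the data, there were 99 and 26, beside 3482 and 3637 of all genes. With the count minimum over the other 68 libraries, also chosen after seeing the data, the waits had 100 and 95, 108 and 94, and 107 and 102. No paired analysis was possible because library numbers are unique and no replicate number is shared between groups.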
